A study of Xenopus laevis with 6 samples.

Results

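A set of 87 probe sets, measured in the *Xenopus laevis* tadpole brain, is described here. Each rose clear of the saline arrays after injection of leptin, with saline array 1 or 2, and not saline array 3, as the highest of the saline arrays. They were chosen by their own values: the lowest of the 3 rxLeptin arrays had to exceed the highest of the 3 saline arrays by more than 0.25 on the log2 scale. Of 32539 probe sets that are not array controls, 389 met that gap, and 302 of them had saline array 3 as the highest saline array and were left out, which left 87 members. The difference between saline and rxLeptin is therefore a description of how the members were found, and it carries no test below.

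The study injected tadpoles of Nieuwkoop-Faber (NF) stage 54 into the brain ventricles with 0.6% saline (arrays 1 to 3) or with recombinant *X. laevis* leptin (rxLeptin, 20 ng per g body weight, arrays 4 to 6) and took the tissue 2 h later. Per the study's methods every array held a separate pool of brains, and the labels name the tissue as preoptic area, hypothalamus and pituitary together. No allele or transgene was involved, and sex was not given. In such tissue, fewer cells of a type and less RNA per cell cannot be told apart. The pituitary growth hormone gene *gh1.S* read 13.54, 13.43 and 13.62 in saline and 13.58, 13.29 and 12.66 in rxLeptin. The hypothalamic releasing hormone gene *trh.S* read 10.17, 9.84 and 9.93 against 9.76, 9.86 and 9.57, so transcripts typical of both parts of the dissection were present.

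Leptin is a hormone of the long-chain helical cytokine family. Its receptor has no kinase of its own and signals through Janus kinases (JAK) and STAT transcription factors, which switch on feedback inhibitors of the same pathway, the SOCS proteins. Related cytokine receptors and the NF-kB pathway share many of these target genes. *X. laevis* carries most genes as a long (.L) and a short (.S) copy, left by a genome duplication, and a probe set can bind one copy or both.

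A single gene name was attached to 29 of the 87 members (33.3%, against 47.6% of all 32539 probe sets), and the other 58 had none. The named members were 17 .L copies, 11 .S copies and 1 gene with neither suffix. Over all members the mean log2 difference, rxLeptin minus saline, ran from 0.33 to 1.47 with a median of 0.59, which is 1.26-fold to 2.77-fold with a median of 1.51-fold. Over all non-control probe sets the median was -0.03. The gap between the groups had a median of 0.32 and reached 0.91 in *irf1.L*. In 33 members (37.9%) the gap was wider than the range within either group of 3 arrays. That held for 193 of all 32539 non-control probe sets (0.59%), but the choice required a gap, so nothing is read from the difference. Groups that did not overlap, with rxLeptin higher, were found in 11.7% of all non-control probe sets.

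**Figure D1:**
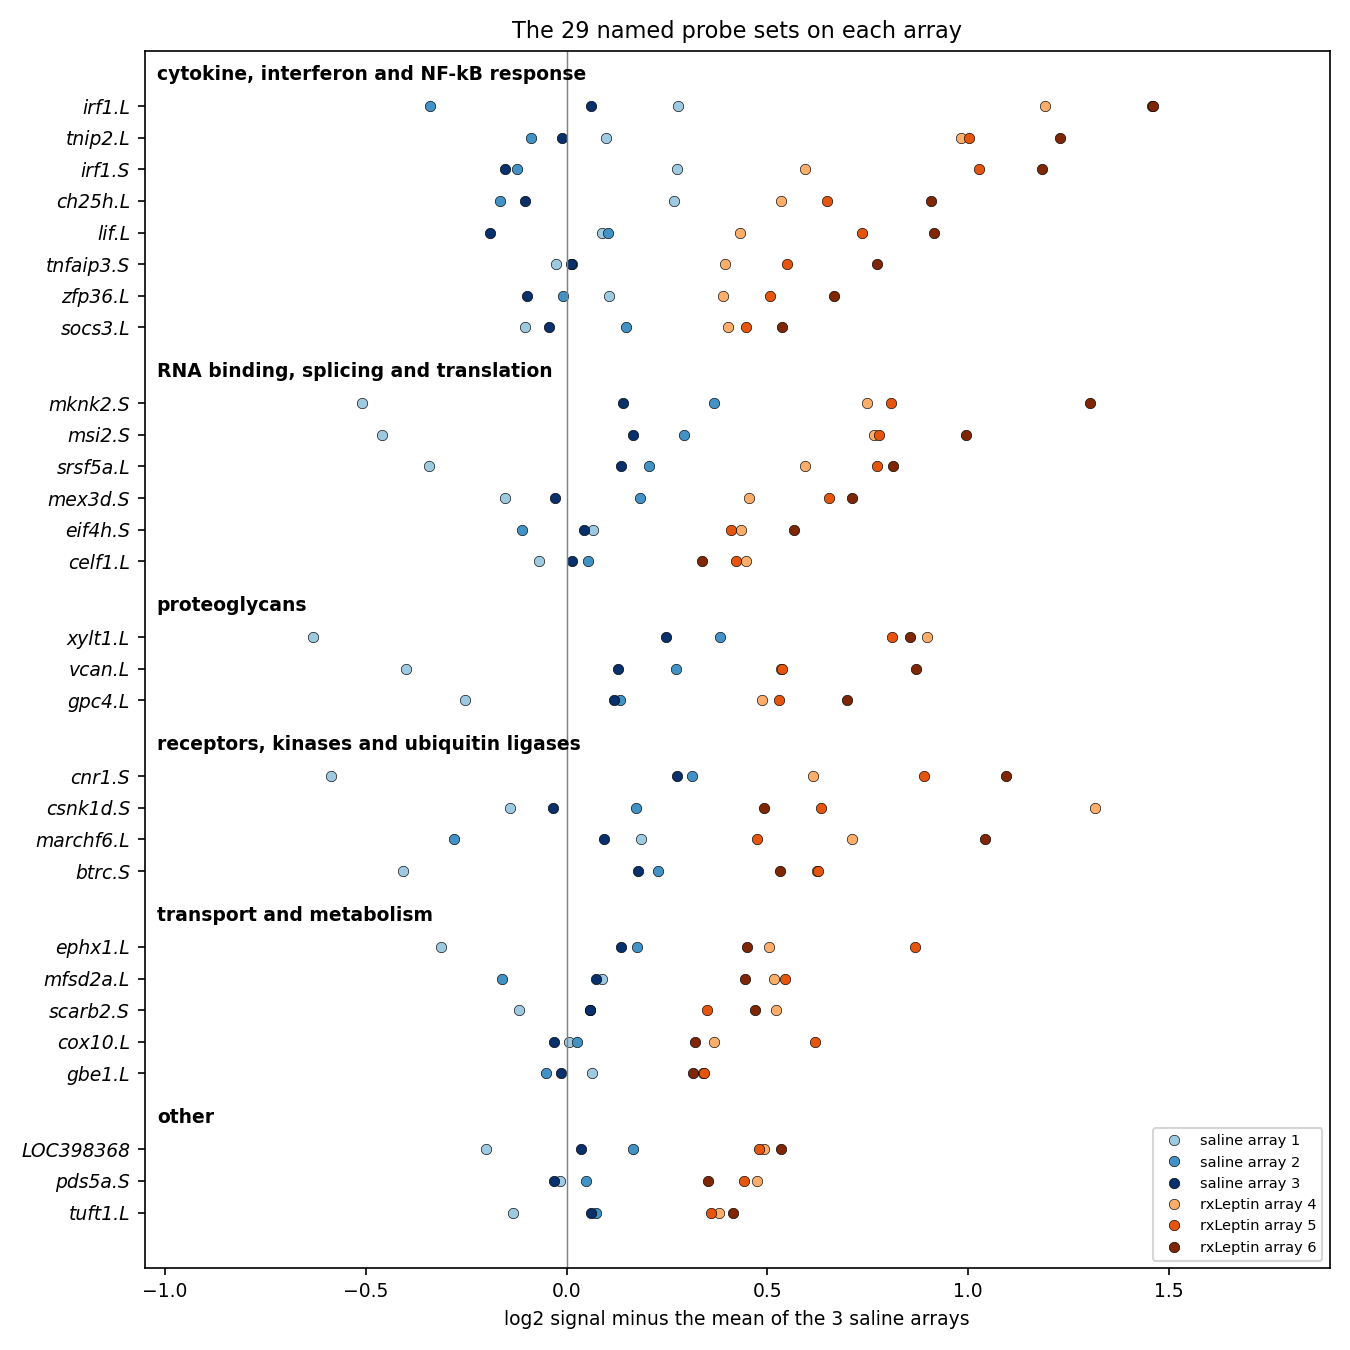
Log2 signal of the 29 named members on each of the 6 arrays, as the difference from the mean of the 3 saline arrays, grouped by function. Blue points are saline arrays 1 to 3 and orange points rxLeptin arrays 4 to 6. In every row the orange points lie to the right of the blue ones, as the choice required, and saline array 1 lies far to the left in *xylt1.L*, *cnr1.S* and *mknk2.S* but to the right of the other saline arrays in *irf1.L*, *irf1.S* and *ch25h.L*.

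Of the named members, 8 belong to cytokine, interferon and NF-kB responses, and both copies of *irf1* were among them. Their mean differences ran from 0.46 to 1.37 with a median of 0.70. *irf1* encodes interferon regulatory factor 1, a transcription factor that interferons and STAT proteins switch on in mammals. The *irf1.L* member read 8.22, 7.61 and 8.01 on saline arrays 1 to 3 and 9.14, 9.40 and 9.41 on rxLeptin arrays 4 to 6. Its mean was 7.95 ± 0.31 (SD, n = 3) in saline and 9.32 ± 0.15 in rxLeptin, a difference of 1.37. The gap of 0.91 was wider than the saline range of 0.62 and the rxLeptin range of 0.27. The *irf1.S* member read 7.48, 7.08 and 7.05 in saline and 7.80, 8.23 and 8.39 in rxLeptin. There the mean difference was 0.93, and rxLeptin array 4 lay nearer to saline array 1 than to rxLeptin array 6. The *irf1.L* member is of a type that can bind several similar transcripts, so its signal and that of *irf1.S* are not known to be separate. A further probe set under the name *irf1.L* read 9.03, 8.34 and 8.30 in saline and 8.21, 8.30 and 8.18 in rxLeptin. That probe set was lower in rxLeptin by mean (-0.32), with overlapping groups, so the probe sets of *irf1.L* disagreed in direction.

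*tnip2.L* encodes a partner of the NF-kB inhibitor Tnfaip3 that also restrains NF-kB signaling in mammals. It read 6.45, 6.26 and 6.34 in saline and 7.33, 7.35 and 7.58 in rxLeptin, with means of 6.35 ± 0.09 and 7.42 ± 0.14. The difference of 1.07 is 2.10-fold, and the gap of 0.88 was wider than the ranges of 0.19 and 0.25 within the groups. The other copy, *tnip2.S*, read 3.83, 3.81 and 3.56 against 3.60, 3.78 and 3.99, and its groups overlapped. By mean signal it stood at percentile 4.8 of all non-control probe sets, near the floor. *tnfaip3.S*, the ubiquitin-editing enzyme that shuts down NF-kB signaling, read 5.14, 5.18 and 5.18 in saline and 5.56, 5.72 and 5.94 in rxLeptin. Its saline arrays lay within 0.04 of each other, the narrowest saline range among the named members, and its mean difference was 0.57.

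A feedback gene of the leptin receptor and the gene of a related cytokine were also members. *socs3.L* encodes the SOCS protein that blocks JAK activity at the leptin receptor. It read 4.99, 5.24 and 5.05 in saline and 5.49, 5.54 and 5.63 in rxLeptin, a difference of 0.46 with a gap of 0.26, close to the threshold of 0.25. *socs3.S* read 6.14, 5.999 and 5.83 against 6.25, 6.57 and 6.24, and its groups did not overlap but lay only 0.11 apart. *lif.L* encodes leukemia inhibitory factor, a cytokine that signals through a JAK-coupled receptor of the same family. It read 4.66, 4.67 and 4.38 in saline and 5.00, 5.30 and 5.48 in rxLeptin, with a difference of 0.69 and an rxLeptin range of 0.48 that exceeded its gap of 0.33. Signals were low in *lif.L*, *socs3.L* and *tnfaip3.S*, which by mean stood at percentiles 22.0, 27.4 and 28.9 of all non-control probe sets. In all 8 members of this class array 4 was the lowest rxLeptin array and array 6 the highest. Array 6 was also the highest rxLeptin array in 58 of all 87 members (66.7%) and in 41.5% of all non-control probe sets.

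*zfp36.L* encodes tristetraprolin, which binds AU-rich elements and speeds the decay of cytokine mRNAs. It read 8.15, 8.03 and 7.94 in saline and 8.43, 8.55 and 8.71 in rxLeptin, a difference of 0.52. The other copy, *zfp36.S*, read 8.47, 7.999 and 8.21 against 8.51, 8.42 and 8.95, with a difference of 0.40 and groups that overlapped by 0.05. *ch25h.L* encodes a cholesterol hydroxylase whose oxysterol product curbs sterol synthesis and viral entry in mammals. It read 6.96, 6.52 and 6.59 in saline and 7.22, 7.34 and 7.60 in rxLeptin, a difference of 0.70. A further *ch25h.L* probe set read 4.01, 3.82 and 4.05 against 4.29, 4.53 and 4.22, so both of its probe sets were higher on every rxLeptin array than on any saline array. The further one had a low signal, at percentile 10.8 by mean.

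**Figure D2:**
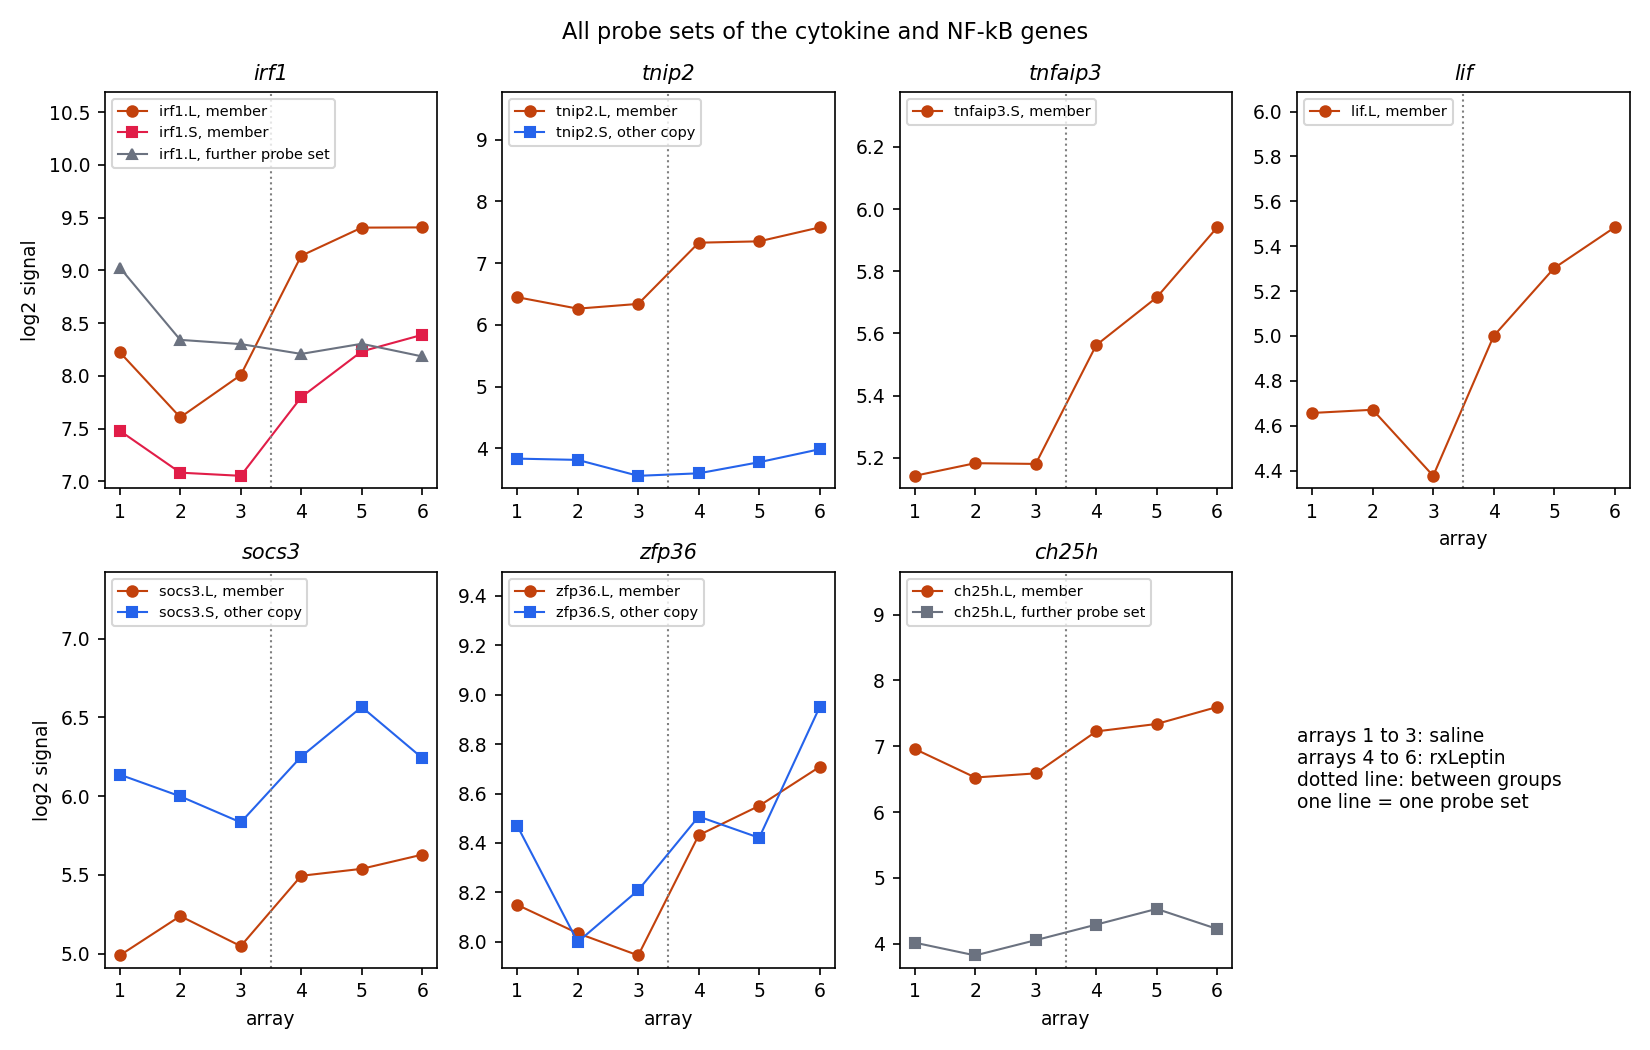
Log2 signal by array (1 to 3 saline, 4 to 6 rxLeptin) of every probe set that carries the name of either copy of the 7 cytokine, interferon and NF-kB genes. Lines join the arrays of 1 probe set. Members rise at the dotted line in each panel, *socs3.S* and the further *ch25h.L* probe set do so by smaller gaps, and the further *irf1.L* probe set and *tnip2.S* do not.

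Immune cells of the brain also express such genes, and the array carried markers of them. The list of microglia and macrophage markers had 12 measured gene copies. Only 3 of them varied enough to enter the limma fit described below, in which 23.1% of probe sets rose and 23.1% fell (0 and 0 without array weights), and of these 3 copies 1 (*irf8.L*) rose and 2 did not pass. Its mean log2 signal lay between 6.10 and 6.27 in saline and between 6.15 and 6.27 in rxLeptin. The leukocyte gene *ptprc.L* read 4.91, 4.74 and 4.55 against 4.79, 4.65 and 4.88. For 9 granulocyte markers the range was 5.34 to 5.68 in saline and 5.36 to 5.45 in rxLeptin, and of the 2 that entered the fit 0 rose and 0 fell. Other marker lists also held calls. Of 20 neuron marker copies 11 were tested, and 5 rose and 0 fell. The rises included *map2.S* (difference 0.74) and *syp.S* (0.94, with overlapping groups), whereas *snap25.L* (0.03), *stmn2.L* (-0.06) and *nefl.L* (-0.10) lay near or below 0. The mean signal of that list ran from 10.79 to 11.09 in saline, lowest on array 1, and from 11.13 to 11.24 in rxLeptin. Of 17 skeletal muscle copies 10 were tested, and 0 rose and 6 fell, with *myl1.L* at -0.91, although *myh4.L*, called a fall with array weights, was 0.12 higher by plain mean. Of 14 pituitary copies 8 were tested, and 1 rose and 2 fell, *cga.S* by -0.80 and *fshb.L* by -0.27. The list means ran from 6.53 to 6.66 against 6.36 to 6.42 for muscle and from 10.26 to 10.44 against 9.89 to 10.32 for pituitary. Among 16 copies for meninges and fibroblasts 6 were tested, and 4 rose and 1 fell. The groups overlapped in the rises *col3a1.S*, *fbln1.L* and *lox.L* and lay only 0.03 apart in *dcn.L*. In the list for radial glia and ependymal cells *foxj1.L*, *nes.S* and *sox9.L* rose, each with overlapping groups. In that list *foxj1.S*, *notch1.S* and *pax6.L* fell, with overlap in *notch1.S*. The part of any of these cells in the members' values was not tested.

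Another 6 named members act on RNA or its translation, and 5 of them had saline array 2 highest. *msi2.S* encodes a Musashi protein, an RNA-binding regulator of neural progenitors in mammals. It read 9.01, 9.77 and 9.64 in saline and 10.24, 10.25 and 10.46 in rxLeptin, with means of 9.47 ± 0.40 and 10.32 ± 0.13 and a difference of 0.85. Its gap of 0.47 was the third widest of the named members, yet the saline arrays spread over 0.75, with array 1 far below arrays 2 and 3. *mknk2.S* encodes a kinase that MAP kinases activate and that phosphorylates the cap-binding translation factor. It read 8.64, 9.52 and 9.29 in saline and 9.90, 9.96 and 10.45 in rxLeptin, a difference of 0.95 with a saline range of 0.88. Neither *mknk2.L* probe set was higher by mean: they read 11.04, 11.08 and 10.70 against 10.86, 10.57 and 10.39, and 5.39, 5.24 and 5.32 against 5.13, 4.92 and 5.09, the second with no overlap and saline higher.

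*srsf5a.L*, which encodes a serine and arginine rich splicing factor, read 8.34, 8.88 and 8.81 in saline and 9.27, 9.45 and 9.49 in rxLeptin, a difference of 0.73. The other copy lay on the opposite side, since *srsf5a.S* read 12.41, 12.38 and 12.22 in saline and 12.13, 12.17 and 12.05 in rxLeptin, a difference of -0.22 with no overlap. *celf1.L*, which binds GU-rich elements in splicing and mRNA decay, read 5.30, 5.42 and 5.38 against 5.81, 5.79 and 5.70. A further *celf1.L* probe set read 7.14, 7.52 and 7.51 against 7.66, 8.50 and 9.23, so its rxLeptin arrays spread far more widely than the gap of 0.14 between its groups. *mex3d.S*, which encodes an RNA-binding protein with a RING finger, read 7.10, 7.43 and 7.22 against 7.70, 7.90 and 7.96, whereas the 3 probe sets of *mex3d.L* overlapped. The *eif4h.S* member, for a partner of the translation helicase, read 5.83, 5.65 and 5.80 against 6.19, 6.17 and 6.33. Like the *irf1.L* member, it is of a type that can bind several similar transcripts. The 2 further *eif4h.S* probe sets also lay higher on every rxLeptin array than on any saline array, with saline array 3 as the highest saline array in both. The other copy, *eif4h.L*, read 11.36, 11.46 and 11.45 against 11.54, 11.46 and 11.49, a difference of 0.075 with overlapping groups.

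All 3 proteoglycan genes had saline array 1 lowest. *xylt1.L* encodes the xylosyltransferase that starts glycosaminoglycan chains on core proteins. It read 8.02, 9.03 and 8.90 in saline and 9.55, 9.46 and 9.50 in rxLeptin. The mean difference of 0.85 fell to 0.54 without saline array 1, and a further *xylt1.L* probe set read 7.13, 7.39 and 6.88 against 7.13, 6.62 and 5.71, which is lower by mean. *gpc4.L* encodes glypican, a heparan sulfate proteoglycan of the cell surface. Its member read 10.96, 11.35 and 11.33 against 11.70, 11.74 and 11.91, a difference of 0.57, and its 3 further probe sets overlapped between the groups. *vcan.L* encodes versican, a chondroitin sulfate proteoglycan of the brain matrix. Its member read 9.59, 10.26 and 10.11 against 10.52, 10.52 and 10.86, and its 4 further probe sets were all higher in rxLeptin by mean, from 0.31 to 0.98, of which 1 had groups that did not overlap.

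A further 4 named members encode a receptor, a kinase or ubiquitin ligases. *cnr1.S* encodes the cannabinoid receptor of neurons, which couples to inhibitory G proteins and takes part in the control of feeding in mammals. It read 9.15, 10.05 and 10.01 in saline and 10.35, 10.62 and 10.83 in rxLeptin. The difference of 0.86 fell to 0.57 without saline array 1, and saline arrays 2 and 3 differed by 0.04. *btrc.S* encodes the F-box protein that hands phosphorylated beta-catenin and NF-kB inhibitors to the proteasome. It read 9.99, 10.63 and 10.58 against 11.02, 11.02 and 10.93, a difference of 0.59 that was 0.39 without saline array 1. The further *btrc.S* probe sets went apart, with one at 6.46, 6.23 and 7.77 against 7.94, 7.83 and 8.16 and another at 9.01, 8.64 and 7.61 against 7.93, 8.04 and 7.69.

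*csnk1d.S* encodes casein kinase 1 delta, which phosphorylates clock and Wnt pathway proteins. The member read 5.45, 5.77 and 5.56 against 6.91, 6.23 and 6.08, and it was the named member with the widest rxLeptin range (0.82), with array 4 above the rest. Both further *csnk1d.S* probe sets overlapped, with differences of 0.22 and 0.0038. They read 9.44, 9.49 and 9.72 against 9.84, 9.70 and 9.79, and 12.22, 12.36 and 12.25 against 12.23, 12.21 and 12.40. By mean signal they stood at percentiles 78.7 and 97.1 of all non-control probe sets, and the member only at 35.3. *marchf6.L*, a ubiquitin ligase of the endoplasmic reticulum that degrades sterol synthesis enzymes in mammals, read 5.62, 5.16 and 5.53 against 6.15, 5.91 and 6.48. One further *marchf6.L* probe set read 9.46, 9.62 and 10.05 against 10.17, 10.13 and 10.46, and another overlapped.

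Another 5 named members encode transport and metabolic proteins, with differences from 0.33 to 0.61. *mfsd2a.L* encodes the carrier that brings lysophosphatidylcholine lipids across the blood-brain barrier in mice. It read 6.20, 5.95 and 6.19 against 6.63, 6.66 and 6.56, a difference of 0.50, and its further probe set read 9.78, 9.43 and 9.46 against 9.72, 9.88 and 10.01, with overlap. *gbe1.L*, the glycogen branching enzyme, read 7.84, 7.73 and 7.76 against 8.12, 8.12 and 8.09. The rxLeptin arrays of *gbe1.L* lay within 0.03 of each other, the narrowest among the named members, and its difference of 0.33 was the smallest of all 87. *scarb2.S*, a membrane protein of lysosomes, read 9.57, 9.74 and 9.74 against 10.20, 10.03 and 10.15, and its other copy *scarb2.L* read 10.26, 10.47 and 10.57 against 10.84, 10.66 and 10.77, also without overlap. *ephx1.L*, the microsomal epoxide hydrolase, read 7.52, 8.005 and 7.96 against 8.33, 8.69 and 8.28. *cox10.L*, which makes the heme of cytochrome oxidase, read 4.82, 4.84 and 4.78 against 5.18, 5.43 and 5.13, whereas its further probe set read 8.86, 8.51 and 8.59 against 8.66, 8.54 and 8.54. In this class the gaps ran from 0.25 to 0.36.

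The last 3 named members share no function. *pds5a.S*, a regulator of the cohesin ring, read 5.90, 5.97 and 5.89 against 6.39, 6.36 and 6.27. Its name was carried by 7 further probe sets, of which 3 did not overlap and were higher in rxLeptin and 4 overlapped. Among those that overlapped, the one with the strongest signal read 10.22, 10.39 and 10.03 against 10.03, 9.99 and 9.99, a difference of -0.21. *tuft1.L*, which encodes tuftelin, read 10.32, 10.53 and 10.52 against 10.84, 10.82 and 10.87, and the gene listed as *LOC398368* read 7.39, 7.75 and 7.62 against 8.08, 8.07 and 8.12. In both, the rxLeptin arrays lay within 0.06 of each other.

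For 16 of the 29 named members the array carried further probe sets of the same gene copy, 32 in all. Of these, 24 were higher in rxLeptin by mean and 8 lower, 13 had groups that did not overlap with rxLeptin higher, 19 overlapped and 0 were lower without overlap. Their median difference was 0.27, and 14 of the 32 had a higher mean signal than the member. The other copy was measured for 11 genes by 16 probe sets that were not members, of which 3 were higher in rxLeptin without overlap, 2 lower without overlap and 11 overlapped, with a median difference of 0.07. Of these 16, 9 had a higher mean signal than the member. Beside the 13 of 32 and the 3 of 16 stand 11.7% of all non-control probe sets without overlap and with rxLeptin higher. No such share is given here for saline higher, so nothing is read from those counts. No second probe set of the same gene copy was a member. For 6 named members (*cnr1.S*, *ephx1.L*, *lif.L*, *msi2.S*, *tnfaip3.S* and *LOC398368*) no other named probe set of either copy was found.

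**Figure D3:**
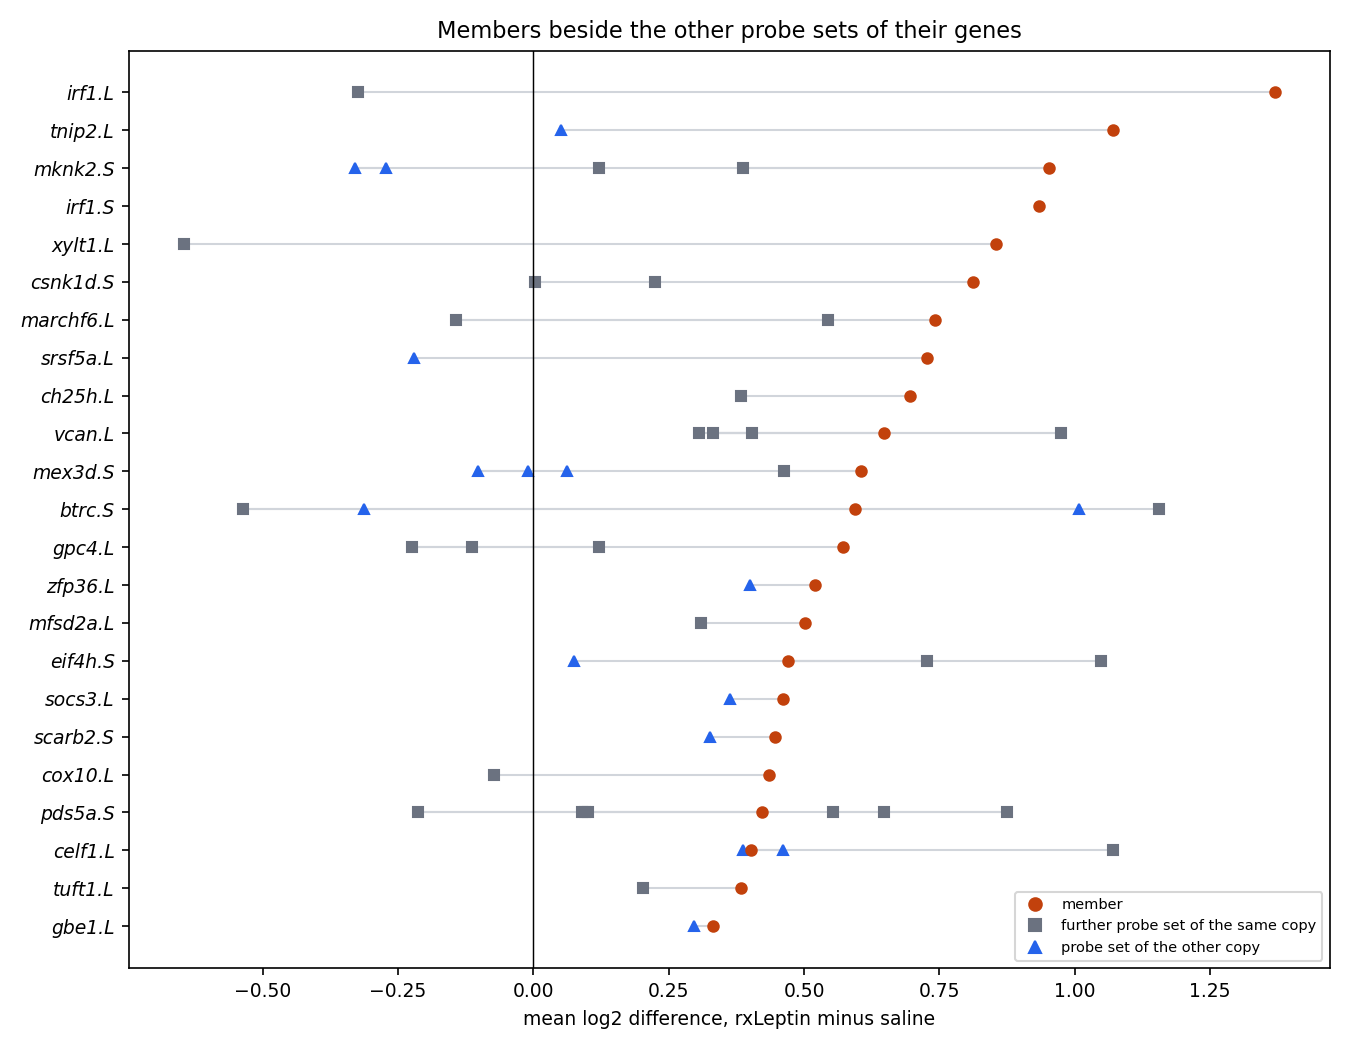
Mean log2 difference, rxLeptin minus saline, of the 23 named members whose gene has another named probe set, in order of the member's difference. Orange circles are the members, grey squares are further probe sets of the same copy and blue triangles are probe sets of the other copy. Squares and triangles lie to the right of 0 throughout in *ch25h.L*, *vcan.L*, *zfp36.L* and *socs3.L*, and on both sides of it in *btrc.S*, *mknk2.S*, *pds5a.S* and *gpc4.L*.

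The 58 unnamed members are identified only by the array's probe set IDs. The widest gap among them was 0.68 in Xl2.32180.1.S1_at, which read 5.70, 7.92 and 7.88 in saline and 8.60, 8.61 and 8.71 in rxLeptin. Its mean difference of 1.47 was the largest of all 87. Saline array 1 lay 2.22 below saline array 2, and without it the difference was 0.74, against 1.51 in *irf1.L*. Next came Xl2.52716.1.S1_at at 5.12, 4.80 and 5.09 against 5.88, 5.78 and 6.06, with a gap of 0.66 and a saline range of 0.32. Then followed Xl2.13762.2.S1_at at 6.13, 7.09 and 7.08 against 7.84, 7.71 and 7.82, again with saline array 1 lowest. A second probe set with the same cluster number, Xl2.13762.1.A1_at, was also a member and read 9.18, 9.67 and 9.57 against 9.95, 10.02 and 10.20.

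The members held a pair of saline profiles. In 69 of them (79.3%) saline array 2 was the highest saline array, and in 60 of these 69 array 1 was the lowest. Over all non-control probe sets the highest saline array was array 1 in 45.3% and array 2 in 26.6%. It was array 3, which the choice left out, in 28.0%. Saline arrays 2 and 3 lay within 0.1 of each other in 45 of the 69. Their median distance below the rxLeptin mean was -0.79 on array 1, -0.41 on array 2 and -0.49 on array 3. In the other 18 saline array 1 was the highest, with medians of -0.50, -0.78 and -0.68. These 18 held *irf1.L*, *irf1.S*, *tnip2.L*, *zfp36.L*, *ch25h.L*, *eif4h.S*, *marchf6.L*, *mfsd2a.L* and *gbe1.L*, so 5 of the 8 cytokine, interferon and NF-kB members and 4 of the other 21 named members had this profile. The difference between those counts was not tested.

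Set beside the 302 rises that had saline array 3 highest, the members had smaller mean differences (median 0.59 against 0.82) and narrower saline ranges (median 0.37 against 0.71). Array 1 was the lowest saline array in 60 of 87 members (69.0%), in 248 of the 302 (82.1%) and in 29.6% of all non-control probe sets. Of the 302, 42 (13.9%) had a gap wider than the range within either group, against 33 of 87 members (37.9%). These measures come from the arrays that chose both sets, and the difference was not tested.

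The arrays also differed in control transcripts. For actin, the signal of the 3′ probe set exceeded that of the middle one by 2.83 on saline array 1, 1.61 on array 2 and 0.77 on array 3, against 0.60 to 0.67 on the rxLeptin arrays. The 3′ to 5′ difference of *gapdh* was 2.71 on saline array 1, between 1.02 and 1.18 on the other saline arrays and 0.93 to 1.11 on the rxLeptin arrays. For *ef1a* it was 4.47 on saline array 1, 3.72 and 3.05 on the other saline arrays and 2.83 to 3.24 on the rxLeptin arrays. The 3′ to 5′ difference of actin ran the other way, with 10.73 on saline array 1 as the smallest of the 6 arrays, 10.90 and 11.16 on the other saline arrays and 11.03 to 11.16 on the rxLeptin arrays. It was far larger on every array than the other 3 differences, and how well so large a difference reads RNA quality was not tested. Larger differences are known to accompany degraded RNA or incomplete labeling. Saline array 1, with the largest difference in 3 of these 4 controls and the smallest in 1, was the lowest saline array in 60 members and the highest in 18. The part of this in the members' values was not tested.

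**Figure D4:**
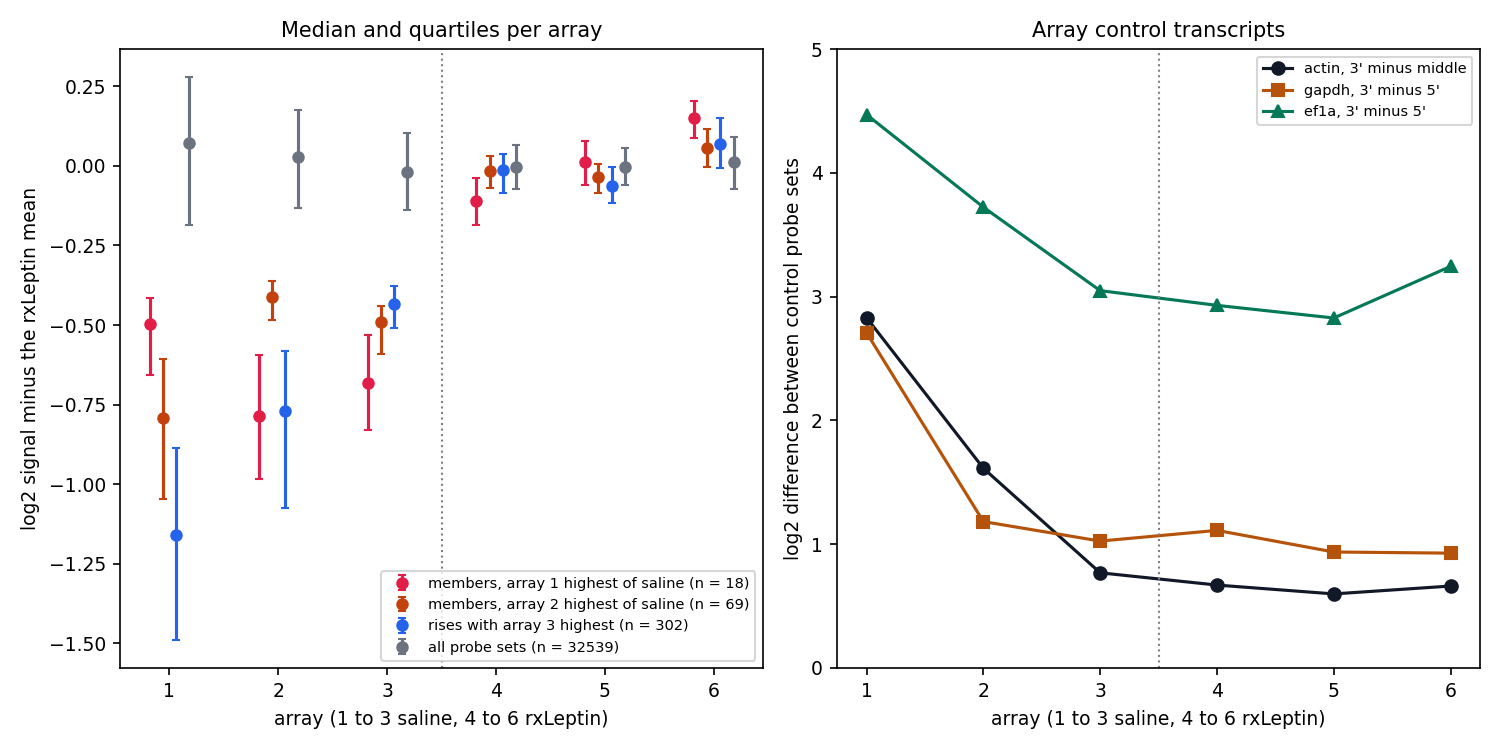
Left, log2 signal on each array minus the rxLeptin mean, as medians with quartiles, for members with saline array 1 highest (18), members with saline array 2 highest (69), rises with saline array 3 highest (302) and all probe sets (32539). Right, log2 difference on each array between the 3′ and the middle control probe sets of actin and between the 3′ and 5′ ones of *gapdh* and *ef1a*. Array 1 carries the largest value of these 3 differences and the lowest median of the 69 and of the 302, but not of the 18.

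The members' differences were described with plain means, and the table was also fitted as a whole with limma (array weights, probe sets with an interquartile range above the median, Benjamini-Hochberg adjustment over 16269 probe sets). With the threshold at an adjusted p of 0.05, 3759 of those tested (23.1%) were called as rises and 3766 (23.1%) as falls. All 87 members passed that filter and all 87 were among the rises, a count that the same contrast fixed and from which nothing is read. The array weights were 3.96 on saline array 2 and 4.27 on rxLeptin array 5. They were 0.30 and 0.27 on saline arrays 1 and 3, and 1.20 and 0.60 on rxLeptin arrays 4 and 6. Every call of a rise or a fall therefore rests mainly on saline array 2 and rxLeptin array 5. Without array weights the fit called 0 rises and 0 falls, with 4262 probe sets at an unadjusted p under 0.05.

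Members fell into 5 lists of gene function. The counts of each list include its members, whose rise the choice fixed. They stand beside 23.1% of all tested probe sets that rose and 23.1% that fell, and 0 of each without array weights. In the list of JAK/STAT feedback and cytokine response, 38 gene copies were measured and 20 tested, of which 9 rose, 3 fell and 8 did not pass, with a median difference of -0.0049 over all 38, against -0.03 over all 11303 named gene copies. Its members were *lif.L*, *socs3.L* and *tnfaip3.S*. The groups overlapped in its rises *cebpd.L*, *pias4.S* and *socs6.L*. Among its other genes *pias4.L*, an inhibitor of STAT proteins, rose, reading 9.02, 9.27 and 9.78 against 9.81, 9.79 and 10.08, whereas *socs2.S*, another SOCS gene, fell, reading 7.58, 7.50 and 7.30 against 7.18, 7.25 and 6.75. Of 23 interferon-responsive gene copies, 15 were tested, 5 rose, 1 fell and 9 did not pass. Apart from both copies of *irf1*, the rises in that list were the related factors *irf2.L*, *irf2.S* and *irf8.L*, with differences of 0.47, 0.38 and 0.22, and the median of the list was -0.04. The groups overlapped in *irf2.L* and *irf2.S* and lay 0.12 apart in *irf8.L*.

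Of 33 NF-kB and inflammatory response gene copies, 18 were tested, 11 rose, 2 fell and 5 did not pass, with a median of 0.14. *tnip2.L* and *tnfaip3.S* were its members and are among the 11 rises, against a share of 23.1% rises over all tested probe sets. The groups overlapped in the rises *birc2.L*, *cxcl12.L*, *junb.S*, *nfkb2.S*, *sdc4.S* and *tifa.S*. Groups without overlap and with rxLeptin higher were found in 5 of the 33, members included, against 11.7% of all non-control probe sets. In 4 of the 33 the groups did not overlap with saline higher. No share over all probe sets is given for saline higher, so nothing is read from that count. The chemokine gene *cxcl8.L* had the largest difference of this list, at 7.32, 6.67 and 7.91 against 9.11, 9.69 and 9.73, but its highest saline array was array 3, so it was no member. *il1b.S*, which encodes interleukin-1 beta, read 4.85, 4.43 and 4.65 against 4.85, 5.06 and 5.24 and rose with a gap of only 0.006. The list of immediate early genes held *zfp36.L*, and 9 of its 21 tested gene copies rose and 5 fell. The groups overlapped in its rises *atf3.L*, *ccn1.S*, *junb.S* and *zfp36.S* and lay only 0.009 apart in *fos.S*. Over all 43 measured copies of that list the median difference was -0.02. The groups did not overlap in 8 of them with rxLeptin higher, against 11.7% of all non-control probe sets. In 7 of them saline was higher without overlap, and with no share beside it nothing is read from this count either. In the list of signaling ubiquitin ligases and deubiquitinases, which held *btrc.S*, 8 of 15 tested gene copies rose and 2 fell. The groups overlapped in its rises *btrc.L*, *siah1.L*, *ube2v2.S* and *usp14.S* and lay only 0.02 apart in *usp25.L*. The remaining lists of function, among them Wnt signaling, cholesterol synthesis, amino acid synthesis and glycolysis, held no member. The Wnt list as written did not include *btrc* or *csnk1d*, so the members *btrc.S* and *csnk1d.S*, which act on beta-catenin or Wnt pathway proteins, could not appear in it. Likewise the cholesterol list included neither *ch25h* nor *marchf6*, and the glycolysis list did not include *gbe1*. A list of MAP kinase feedback lacked *mknk2*, and one of G protein signaling lacked *cnr1*. That these lists held no member therefore depends on how they were written.

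**Figure D5:**
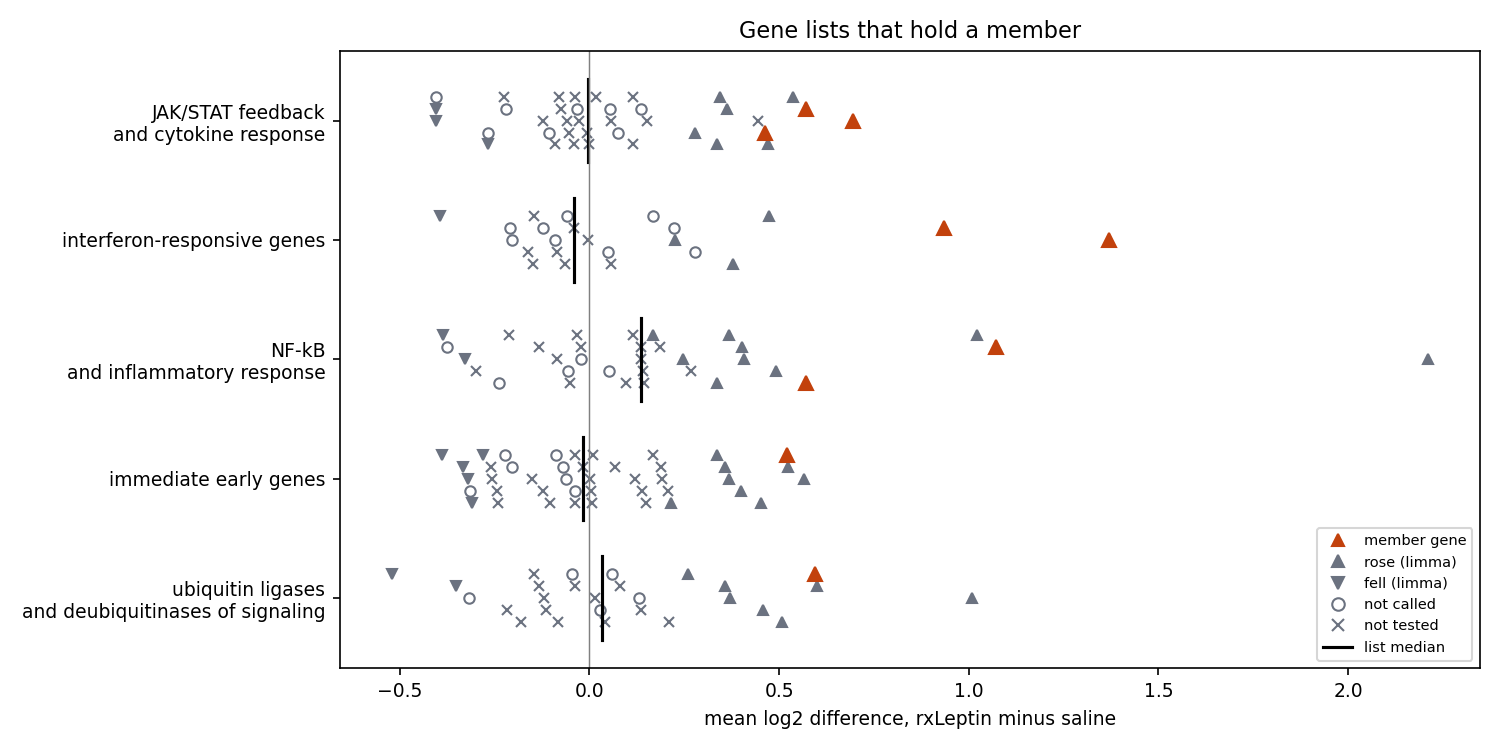
Mean log2 difference, rxLeptin minus saline, of every measured gene copy in the 5 lists that hold a member, each at the probe set with the highest mean signal. Orange triangles are member genes, grey triangles point up for a rise and down for a fall in the limma fit, open circles did not pass, crosses were not tested and the black bar is the list's median. The member genes lie at or above 0.46, and the list medians lie between -0.04 and 0.14.

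The choice turned on a threshold that many probe sets neared. Between a gap of 0.2 and 0.25 there were 65 further probe sets with saline array 1 or 2 highest, and between 0.25 and 0.3 there were 35 members. The smallest gaps inside were 0.2504 and 0.2514 in unnamed members, 0.2516 in *gbe1.L*, 0.2524 in another unnamed member and 0.2555 in *socs3.L*. Just outside stood *ptbp3.S*, which encodes a splicing regulator, at 7.40, 8.08 and 7.94 against 8.33, 8.45 and 8.87. After it came *efnb1.L*, an ephrin ligand, at 8.84, 9.56 and 9.38 against 9.81, 10.15 and 10.54.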

How the data were processed

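RNA of 6 tissue pools, 3 per treatment, was labeled and hybridised to an Affymetrix array of *X. laevis* transcripts. The deposited values are log2 signals that, per the study's methods and the submitters' processing notes, the authors made from the scanned arrays with robust multi-array averaging (RMA in affy). That step shares 1 intensity distribution over the arrays, combines the probes of a set into 1 value and keeps no depth. No table column with values of single arrays was left unused.

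Leaving aside 96 array controls, members were found as stated among 32539 probe sets (Python 3.11.15, pandas 2.3.3). Differences are plain means of 3 arrays. One gene name was attached to 15495 probe sets by the platform annotation, with 15394 rows of the table matched by gene ID to current symbols. Named were all members with 1 gene name, and 3 unnamed ones with the widest gaps. For the fit of the whole table, limma 3.58.1 was used with R 4.3.3 (treatment only, array weights, interquartile range above 0.173, Benjamini-Hochberg adjustment), after a test on simulated data. The weights ran from 0.274 on saline array 3 to 4.27 on rxLeptin array 5, and their estimation stopped before its tolerance was reached. In the lists a gene copy with several probe sets stands as the one whose mean signal was highest.

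Members and lists were chosen with earlier results of these data known, and the classes of function after the members were known. No sequence was used here.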

Additional observations from a re-analysis of the deposited data

How the results depend on the processing

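The count of 87 members became 479 with a gap of 0.1, which holds all 87, and 8 with a gap of 0.5, among them *irf1.L* and *tnip2.L*. Centring the array medians gave 92 members, 78 of them shared, and quantile normalization 82, with 66 shared. *ch25h.L*, *gbe1.L* and *socs3.L* dropped out under both scalings, *marchf6.L* and *zfp36.L* under the first and *btrc.S*, *celf1.L*, *cox10.L*, *eif4h.S* and *tnfaip3.S* under the second. Of the 21 lost under quantile normalization, 11 fell below the gap, to no less than 0.19, and in 10 saline array 3 became the highest saline array. Probe sets made to bind 1 transcript numbered 79. Leaving out 1 array gave 99 to 2483 members. The highest count came without saline array 3, where the condition on that array holds by construction, and without rxLeptin arrays 4 and 5 the counts were 182 and 176. Without saline array 2 there were 104, of which 27 were shared. Without saline array 1 there were 99, of which 75 were shared and 12 of the 87 were lost. The 7 named among those lost were *irf1.L*, *tnip2.L*, *ch25h.L*, *eif4h.S*, *gbe1.L*, *marchf6.L* and *mfsd2a.L*. In these, saline array 3 lay above saline array 2, so their membership depended on the value of saline array 1. Rises numbered 0 without array weights (4262 probe sets at an unadjusted p under 0.05, limma), 2382 with weights estimated gene by gene, 0 after centring the medians (3810 unadjusted) and 0 to 4207 with an array left out. Falls numbered 0, 1612, 0 and 0 to 4507. The lows came without saline array 1 (2633 unadjusted) or saline array 2 (2677 unadjusted), and without saline array 3 there were 1960 rises and 893 falls. The cause was not tested. The mean differences of the 29 named members moved by over 1.5 times only in *xylt1.L*, *btrc.S* and *cnr1.S* without saline array 1. They stayed above 0 with each array left out, which the gap used for the choice fixed in advance. They also did so under both scalings, though array medians of 7.305 to 7.354 left centring no room to reverse them. Nothing is read from these signs. Leaving out each array for the 3 unnamed members with the widest gaps was chosen after seeing the data. The differences stayed above 0, as the gap again required, and the one of Xl2.32180.1.S1_at ran from 0.74 without saline array 1 to 1.85 without saline array 2. With the mean over the probe sets of a gene copy, the medians of the Wnt and PI3K lists changed sign, to 0.01 and 0.01. No paired analysis was possible because the labels pair no arrays. With 3 arrays per group, their number limits the precision.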
